A study of Mus musculus with 25 samples.

Results

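The cytosolic ribosomal protein genes encode the protein part of the cytoplasmic ribosome. They were taken from an Illumina bead array table of mouse intestine by symbol: Rps (small subunit) or Rpl (large subunit) with a number, and Rplp0 to Rplp2, without the Rps6k kinases and the mitochondrial Mrp genes. In all, 58 symbols matched, and 51 of them had a probe with a detection p-value under 0.05 on at least 3 of the 25 arrays. These 51 genes, 24 of the small and 27 of the large subunit, are the members described, among 11369 gene symbols tested on the same arrays. Where a symbol had several probes, the probe with the highest mean signal stood for the gene. The 7 symbols without such a probe were Rpl14, Rpl3l, Rpl17, Rpl39l, Rpl6, Rplp2 and Rps23, and their normalized signals stayed between 4.19 and 5.04 on the log2 scale.

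A ribosome holds a single copy of nearly every ribosomal protein, so cells make these proteins in matched amounts, and the small and large subunits are assembled in the nucleolus before export. Output is controlled at several steps: the mTOR pathway controls translation of these messages through a run of pyrimidines at their 5′ end, and Myc raises transcription of many genes of ribosome production. In the intestine the dividing cells of the crypts renew the epithelium, and their growth calls for new ribosomes.

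Tissue came from C57Bl/6 mice, described as females aged 6 to 8 weeks and fed a gel diet for 5 days before surgery. Surgeons removed 2.5 cm of ileum at a point 3 cm above the ileocecal valve to form an ileal loop, and Trizol was used to extract total RNA 5 weeks later. A self-filling loop holds standing contents, whereas a self-emptying loop drains. The loop groups were TLR4 KO self-filling (3 arrays), IL10 KO self-filling (3), wild-type (WT) self-filling (3), TLR4 KO self-emptying (3), IL10 KO self-emptying (3) and WT self-emptying (4). The other groups were WT sham cecum (3) and WT sham ileum (3), from mice that had no loop. TLR4 is the receptor for bacterial lipopolysaccharide and IL10 an anti-inflammatory cytokine, and KO is a knockout of the gene. Nothing in the labels ties each array to its own mouse, so p-values measure the spread between these arrays, which may be technical.

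The Tlr4 probe read 4.40 ± 0.15 and 4.60 ± 0.16 (SD, n = 3 each) in the TLR4 KO self-filling and self-emptying loops, against group means of 4.99 to 6.88 elsewhere. The Il10 probe was detected on the 6 arrays labelled IL10 KO and on no other, with 7.34 ± 0.10 in self-filling and 6.65 ± 1.01 in self-emptying loops (SD, n = 3 each), against group means of 4.31 to 4.56. No source used here says whether this probe lies outside the deleted part, so "IL10 KO" below means arrays with that label. All 6 TLR4 KO arrays carry codes of a series MX and the other 19 of a series MW, so that genotype TLR4 KO and code series cannot be told apart. The signal ratio, the 95th percentile of an array's raw signals divided by their median, ranged from 15.3 to 16.3 on the WT self-filling arrays and from 9.36 to 15.3 on all others. All 8 large intestinal markers tested were higher and all 6 ileal markers lower in sham cecum than in sham ileum. Arrays of the same group correlated at 0.968 to 0.992, and no pair of arrays held identical values. These are whole tissues, in which fewer cells of a type and less RNA per cell cannot be told apart.

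The start sites of 8 genes that the results turn on are printed because ribosomal protein transcripts are known for the pyrimidine run at that place. Each line gives 15 bases before and 15 bases from a RefSeq start in GRCm38.p6. The strand shown is the coding strand, which reads like the transcript, 5′ to 3′. The longest run of C and T is in capitals. Where a gene had several starts, the start with the longest run within 20 bases either side was chosen.
Rplp0 (chr5:115559452-115559481, plus strand): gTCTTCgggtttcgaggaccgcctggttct
Rpl7a (chr2:26910792-26910821, plus strand): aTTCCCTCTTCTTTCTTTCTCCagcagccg
Rpl22 (chr4:152324421-152324450, plus strand): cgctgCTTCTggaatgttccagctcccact
Rps9 (chr7:3704026-3704055, plus strand): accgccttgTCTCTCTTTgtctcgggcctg
Rps3a (chr3:86142654-86142683, minus strand): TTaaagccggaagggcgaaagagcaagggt
Rpl36a (chrX:134585639-134585668, plus strand): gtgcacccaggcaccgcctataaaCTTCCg
Rpl4 (chr9:64173372-64173401, plus strand): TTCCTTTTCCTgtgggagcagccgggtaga
Rpl27a (chr7:109519180-109519209, plus strand): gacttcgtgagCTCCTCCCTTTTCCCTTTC

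RefSeq gave 49 start sites for 41 of the 51 members, and each gene was counted by its start with the longest run. The search was for an unbroken run of at least 8 letters, each C or T, within 20 bases either side of a start. On the coding strand such a run was found for 21 of the 41 (51.2%), against 4965 of 27025 genes in the table (18.4%). On the other strand the same search found 3 of 41 members (7.32%) and 5457 of 27025 genes (20.2%). In the printed bases the longest run was 21 letters at Rpl7a, 19 at Rpl27a and 2 at Rps3a, which RefSeq names Rps3a1. In the wider stretch searched it was 21, 20 and 5 letters at these genes. In sham cecum minus sham ileum the median log2 change was 0.31 over the 21 members with a run and 0.34 over the 20 without, and in WT self-filling loops minus sham ileum it was 0.20 and 0.19. A match is a description of these letters and not a mapped start or a binding site.

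The members were among the brightest probes of the arrays, a matter of measurement, since signals of different probes do not order their transcripts. Of the 51 probes, 28 lay among the 114 probes of highest mean signal (the top 1% of those tested) and 38 in the top 5%, and 50 were detected on all 25 arrays. The exception, Rps15a, was detected on 21 arrays and had a mean normalized log2 intensity of 5.24. The highest means were 14.61 for Rplp1, a protein of the acidic stalk that recruits elongation factors, 14.58 for Rpl41, the shortest of the ribosomal proteins, and 14.22 for Rpl38. The lowest, beside Rps15a, were 6.02 for Rpl21 and 7.72 for Rplp0, the base of the same stalk. A member's signal came from a median of 36 beads, with a bead standard error of 3.26% of the signal in the median.

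Bright probes varied less between groups. The 39 members with a mean of at least 11 had a median range of 0.45 between the lowest and highest of the 8 group means, and at most 1.01. For the 12 members under 11 the median range was 0.93. Level and range had a Spearman correlation of -0.69 over the 51 members, all read on the same arrays. Dimmer probes of the same genes mostly varied more, with a wider range than the brightest probe for 8 of 11, such as 1.01 against 0.49 for Rps24. Rplp1 was the brightest of all probes on 7 arrays and Rpl41 on 4, and quantile normalization gives the brightest probe of every array the same value, so a change in these genes above the rest could not be seen. The raw signal of Rplp1 was 26873 to 31455 in WT self-filling loops and 23817 to 26206 in WT sham ileum, while that of Rpl41 was 24755 to 28462 and 25996 to 26983 in the same groups. The widest ranges of group means were those of Rps3a (1.85), Rpl22 (1.76), Rplp0 (1.33) and Rpl7a (1.27).

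**Figure D1:**
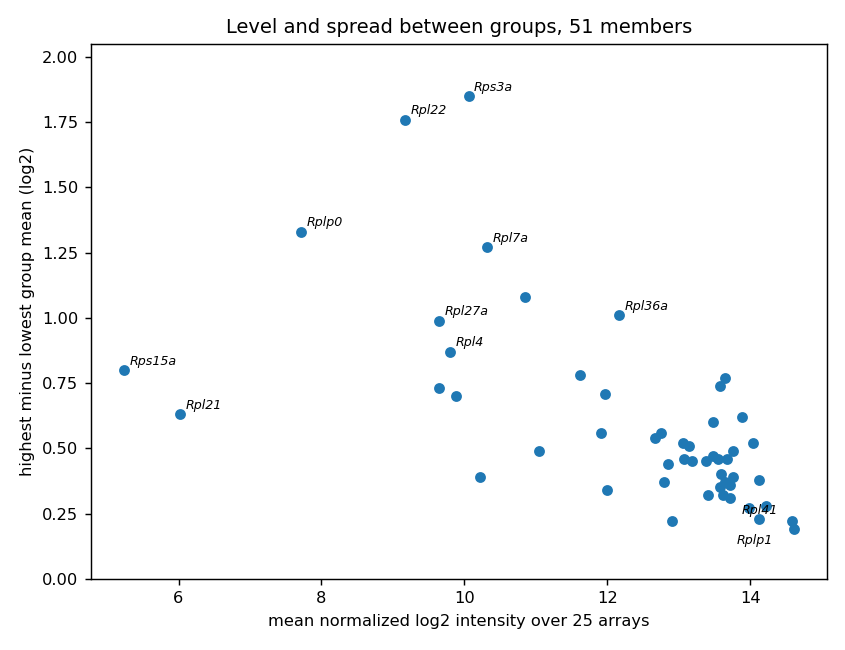
Mean normalized log2 intensity over 25 arrays (x axis) against the difference between the highest and lowest of the 8 group means (y axis, log2), a point for each of 51 genes. Rps3a, with a range of 1.85, and Rpl22, with 1.76, stand above the rest, and Rplp1 and Rpl41 sit at the bright end with ranges of 0.19 and 0.22.

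The median over the 51 members moved within narrow limits. It was 13.17 ± 0.08 in TLR4 KO, 13.32 ± 0.12 in IL10 KO and 13.24 ± 0.18 in WT self-filling loops (SD, n = 3 each). In self-emptying loops it was 13.14 ± 0.04 in TLR4 KO (n = 3), 12.96 ± 0.14 in IL10 KO (n = 3) and 13.08 ± 0.04 in WT (n = 4). The value was 13.34 ± 0.07 in sham cecum and 13.05 ± 0.09 in sham ileum (SD, n = 3 each). The cecum arrays, at 13.34, 13.27 and 13.42, all lay above the ileum arrays, at 13.10, 13.11 and 12.94. The IL10 KO self-filling arrays, at 13.45, 13.29 and 13.22, all lay above the IL10 KO self-emptying arrays, at 12.82, 12.95 and 13.09. With the 8 groups ordered by this mean, each overlapped its neighbour.

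**Figure D2:**
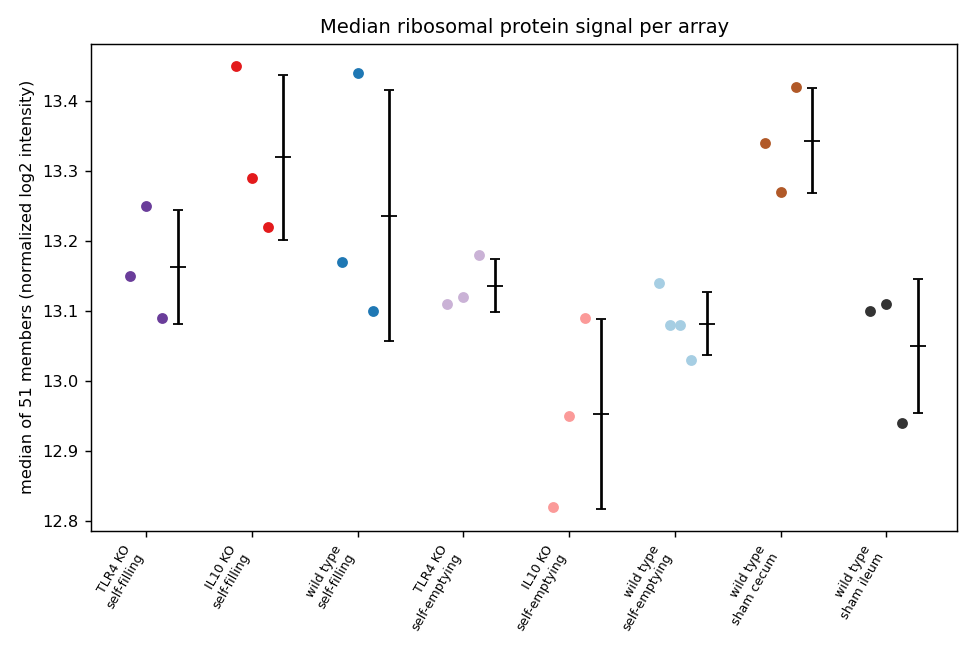
Median normalized log2 intensity of the 51 genes on each array (y axis) in the 8 groups, with the group mean and SD as bars. Sham cecum (13.27 to 13.42) lies above sham ileum (12.94 to 13.11), and IL10 KO self-filling (13.22 to 13.45) above IL10 KO self-emptying loops (12.82 to 13.09).

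The cecum was set against the ileum of sham mice to see how the members differ between normal segments. The cecum had more signal for most of them: 26 of the 51 rose (11 of the small and 15 of the large subunit) and none fell at an adjusted p under 0.05, with 35 under 0.05 unadjusted. Over all 11369 genes 16.3% rose and 11.6% fell. The members' median log2 change was 0.34, against 0.03 over all genes, and 48 of 51 were above 0. The changes were small, with a median of 1.39-fold over the 26.

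Rpl22, a large subunit protein whose loss in mice blocks development of a class of T cells, read 10.33, 10.13 and 10.25 in sham cecum, against 8.96, 9.30 and 9.13 in sham ileum. The arrays do not overlap, and the cecum values are the highest of the 25 arrays. The change was 1.11 ± 0.23 (log2, SE; adjusted p = 0.000927). Rps9, of the small subunit, read 13.95 to 14.05 on the 3 sham cecum arrays, against 13.26, 13.40 and 13.04 in sham ileum, a change of 0.77 ± 0.11 (adjusted p = 2.16e-05) that again left the groups apart. Rpl7a, of the large subunit, read 11.09, 10.11 and 10.94 in cecum, against 9.97, 9.73 and 9.64 in ileum, a change of 0.93 ± 0.26 (adjusted p = 0.00948). Its 3 cecum arrays are wide apart, and without cecum replicate 1 the adjusted p was 0.0642. Rps3a rose by 0.74 ± 0.19.

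Smaller rises, down to 0.27, were found among other members, such as Rpl24, Rpl36a, Rps3, Rps25, Rpl21, Rps10, Rpl12 and Rpl19. Rps12, at -0.19 ± 0.15, Rps15a, at -0.09 ± 0.27, and Rps27l, at -0.02 ± 0.10, were the 3 members below 0. Within each of 3 runs of 8 array codes, which held an array of each segment, the median difference was 0.37, 0.23 and 0.41, with 49, 46 and 47 members higher in cecum. Of 28 translation factors tested, 10 rose and none fell in the cecum. Among them were Eif2s2, a subunit of the initiation factor that carries the first tRNA, at 1.05 ± 0.20, and Eif3g at 0.96 ± 0.19. Of 29 ribosome biogenesis genes tested, 5 rose and 1 fell there, with a list median of 0.11. Of 8 T cell markers 3 fell in the cecum, where their mean level was 5.54 to 5.71, against 5.94 to 6.68 in ileum; their part in these differences was not tested. The 26 calls became 14 without cecum replicate 3 and 16 without ileum replicate 1. When arrays were scaled on their median in place of quantiles, 2 calls were left, although 47 of 51 members were still above 0; that scaling moved the median of all genes to -0.10.

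**Figure D3:**
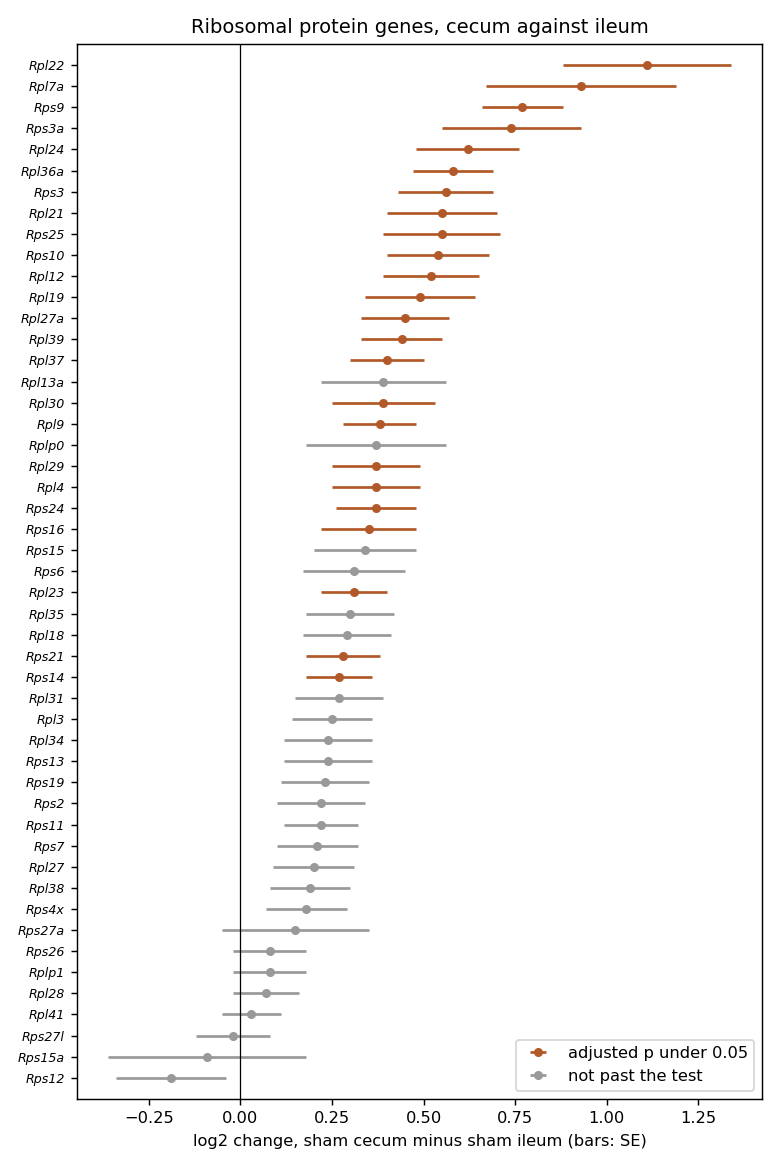
Log2 change of each of 49 of the 51 genes in sham cecum minus sham ileum (x axis), with standard errors as bars, sorted by change; the remaining members are not reported here. The 24 drawn genes with an adjusted p under 0.05 are in brown and run from 0.27 to 1.11, and 3 genes lie below 0.

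The WT self-filling loop was compared with sham ileum, the segment it was made from. Of the members 8 rose and 1 fell, with 19 under 0.05 unadjusted, where 10.5% of all genes rose and 9.25% fell. Their median was 0.20, against 0.04 over all genes, and 46 of 51 were above 0. Rplp0, Rpl7a and Rps27a rose most, and Rps12 fell.

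Rplp0, often used as a reference transcript, read 7.85, 8.36 and 8.05 in WT self-filling loops, against 7.12, 6.82 and 6.96 in sham ileum. The groups lie apart by more than either spreads, with a change of 1.12 ± 0.19 (adjusted p = 0.00104). Rpl7a read 10.71, 10.99 and 10.89 in self-filling loops, against 9.97, 9.73 and 9.64 in ileum, a change of 1.09 ± 0.26 (adjusted p = 0.00749). Both calls held in every alternative tried. Rps27a, which is made as a fusion with ubiquitin, read 10.19, 10.15 and 10.39 in self-filling loops, against 9.50, 9.48 and 9.65 in ileum, a change of 0.70 ± 0.20 (adjusted p = 0.0216). Its adjusted p was 0.0577, 0.0758 and 0.0917 without ileum replicate 1, ileum replicate 2 or self-filling replicate 3.

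Rpl29 rose by 0.50 ± 0.12, Rps3, a protein of the mRNA entry channel, by 0.46 ± 0.13, and Rps9 and Rpl35 by 0.35 each. With the mean of all detected probes Rpl29 changed by 0.40 (adjusted p = 0.0579). Rps12 read 13.70, 13.70 and 13.19 in self-filling loops, against 13.89, 14.17 and 13.90 in ileum, and fell by 0.45 on the log2 scale (SE 0.15, adjusted p = 0.0414). Without self-filling replicate 3, the lowest of these arrays, its change was -0.28 (adjusted p = 0.242), and without ileum replicates 1, 2 or 3 the adjusted p was 0.0585, 0.177 and 0.0625.

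The genes that build ribosomes moved in the same comparison. Of 29 ribosome biogenesis genes tested, 14 rose and none fell in the WT self-filling loop, with Mybbp1a, a nucleolar protein, at 1.06 ± 0.26 and Rrp12, which acts in subunit maturation, at 1.04 ± 0.23; the list's median was 0.49. Of 28 translation factors 7 rose and 1 fell, with Gnb2l1, the scaffold RACK1 of the small subunit, at 0.91 ± 0.17 and Eif6, which keeps unfinished large subunits from joining, at 0.70 ± 0.15. Of 4 ribosomal protein genes outside the symbol rule 1 rose, the Rpl22 paralogue Rpl22l1, at 0.84 ± 0.21. Of 11 genes of the mTOR pathway 1 rose, Eif4ebp1, which represses initiation, at 1.07 ± 0.21, and 2 fell, and of 7 genes of the Myc network none rose and 1 fell, with list medians of 0.03 and 0.07.

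Markers of other cells moved too. In the WT self-filling loop 5 of 8 T cell, 5 of 8 macrophage, 3 of 4 adipocyte and 2 of 9 smooth muscle markers fell. The mean level of the T cell list was 5.03 to 5.45 in self-filling loops and 5.94 to 6.68 in ileum, and that of the adipocyte list was 4.49 to 5.49 and 7.73 to 10.60. The part of these cells in the members' changes was not tested. Within runs of codes the median difference was 0.30 and 0.15. The 9 calls became 4 without ileum replicate 1, ileum replicate 3 or self-filling replicate 3, and 5 without self-filling replicate 2. They were 23, all rises, under median scaling, which moved the median of all genes to 0.16, and 3 when the signal ratio entered as a covariate.

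The WT self-emptying loop, which had the same surgery but drains, gave no member past the test against sham ileum, where 0.0088% of all genes passed in either direction, with 4 members under 0.05 unadjusted. Their median was 0.12, against 0.01 over all genes, and 44 of 51 were above 0. The 2 members with the smallest p were Rps25, at 0.45 ± 0.15 (adjusted p = 0.446), and Rpl7a, at 0.66 ± 0.24 (adjusted p = 0.494). The comparisons with sham ileum share the same 3 ileum arrays.

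Self-filling against self-emptying loops asks what standing contents add to the surgery. In WT, 3 members rose and none fell, where 5.95% of all genes rose and 5.56% fell, with 9 members under 0.05 unadjusted. The median member changed by 0.10, against 0.02 over all genes. Rplp0 read 7.85, 8.36 and 8.05 in WT self-filling loops, against 7.76, 7.07, 7.01 and 7.39 in WT self-emptying loops, and rose by 0.78 ± 0.18 (adjusted p = 0.0111). The groups lie close, at 7.85 and 7.76 for their nearest arrays. Rps27a read 10.19, 10.15 and 10.39 in self-filling loops, against 9.56, 9.64, 9.35 and 9.74 in self-emptying loops, and rose by 0.67 ± 0.19 (adjusted p = 0.0279). Rpl29 read 11.84, 12.29 and 12.01 in self-filling loops, against 11.77, 11.74, 11.65 and 11.60 in self-emptying loops, and rose by 0.36 ± 0.11 (adjusted p = 0.0428). With the mean of all detected probes Rpl29 changed by 0.27 (adjusted p = 0.205), and its second probe changed by 0.17 ± 0.21 (unadjusted p = 0.433).

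In the same WT comparison 3 biogenesis genes rose, among them Nob1 at 0.61 ± 0.15, and of 8 T cell markers 4 fell, with mean levels of 5.03 to 5.45 in self-filling and 5.97 to 6.55 in self-emptying loops. Of 4 adipocyte markers 2 fell, with mean levels of 4.49 to 5.49 in self-filling and 6.24 to 10.46 in self-emptying loops; the part of these cells was not tested. The Rpl29 call was lost without self-filling replicate 2 or 3 or self-emptying replicate 2, 3 or 4, with adjusted p of 0.0763 to 0.195. The Rps27a call was lost without self-filling replicate 1 or 3 or self-emptying replicate 2 or 3, with adjusted p of 0.0585 to 0.129. The 3 calls became 1 without self-emptying replicate 2 or self-filling replicate 3 and when runs of codes formed a block, and none when the signal ratio entered as a covariate. The WT self-emptying arrays of codes 9 to 16 had ratios of 9.50 and 10.2, and without both of them no member passed and Rplp0 changed by 0.52 (adjusted p = 0.202). Within the runs that held both groups the median difference was 0.05 and 0.09. Under median scaling 15 members rose, and the median of all genes moved to 0.21.

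In arrays labelled IL10 KO, 4 members rose and 2 fell with filling, where 1.94% of all genes rose and 2.23% fell, and 21 members were under 0.05 unadjusted. The members' median was 0.21, against -0.02 over all genes, and 41 of 51 were above 0. Rpl24, which joins the large subunit late and whose partial loss in mice gives the Belly spot and tail phenotype, read 12.40, 12.12 and 12.03 in self-filling loops, against 11.50, 11.67 and 11.79 in self-emptying loops. It rose by 0.53 ± 0.14 (adjusted p = 0.0332), with no overlap. Rpl31 rose by 0.46 ± 0.12, Rpl18 by 0.45 ± 0.12 and Rps7 by 0.41 ± 0.11. A second Rpl31 probe moved the other way, at -0.45 ± 0.12 (unadjusted p = 0.0018), so the direction of Rpl31 depends on the probe.

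Rpl4, which lines the exit tunnel for new proteins, read 9.15, 9.23 and 9.35 in self-filling loops labelled IL10 KO, against 9.69, 9.73 and 9.82 in the self-emptying loops. Rpl27a read 9.21, 9.12 and 8.97 in self-filling loops, against 9.64, 9.40 and 9.74 in self-emptying loops. They fell by 0.50 and 0.49 on the log2 scale (SE 0.12 each, adjusted p = 0.0242 and 0.0273), against the direction of most members. Of 29 ribosome biogenesis genes 1 rose and 1 fell, with a list median of -0.03, and none of 28 translation factors passed. Of 5 neutrophil markers 3 rose, with mean levels of 8.18 to 9.04 in self-filling and 6.80 to 8.02 in self-emptying loops. The part of these markers was not tested. The calls depended on single arrays: 0 without self-filling replicate 1, 3 without self-filling replicate 2, 13 without self-filling replicate 3, 1 without self-emptying replicate 1 and 2 without self-emptying replicate 2. Within runs of codes the median difference was 0.24, 0.24 and 0.07, with runs as a block 11 members passed, and under median scaling none did.

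In TLR4 KO no member passed, where 0.088% of all genes did, and none was under 0.05 unadjusted. The median member changed by -0.01, against 0.02 over all genes, and 25 of 51 were above 0. That count was 35 under median scaling and 31 without self-filling replicate 3, with medians of 0.06 and 0.02. It was 19 without self-filling replicate 2 and 20 without self-emptying replicate 1, with a median of -0.05 in both. Rpl39 changed by -0.21 ± 0.11 (adjusted p = 0.598) and Rps12 by -0.30 ± 0.15 (adjusted p = 0.578), the 2 smallest p-values. Rplp0 read 7.94, 8.47 and 8.00 in TLR4 KO self-filling loops, against 7.79, 7.90 and 7.90 in TLR4 KO self-emptying loops, so that each filling array was higher, by a mean of 0.27 ± 0.19 (adjusted p = 0.732).

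The effect of filling was then compared between genotypes. No member passed for IL10 KO against WT, where 2.33% of all genes did, with 9 members under 0.05 unadjusted. The smallest p was that of Rpl13a, a gene known in human cells for release from the ribosome during interferon signalling, with a difference of -0.80 ± 0.23 (adjusted p = 0.062). Without WT self-filling replicate 2 that difference was -0.91 (adjusted p = 0.038) and 2 members passed. Rpl13a also passed under median scaling (-1.15, adjusted p = 0.0251), when runs of codes formed a block (-0.93, adjusted p = 0.03) and when the model took in the signal ratio (-0.91, adjusted p = 0.038). No member and none of the 11369 genes passed for TLR4 KO against WT, with 2 members under 0.05 unadjusted. For Rplp0 that difference was -0.51 ± 0.27 (adjusted p = 0.836).

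Averaged over the 3 genotypes, 6 members rose with filling and none fell, where 6.43% of all genes rose and 7.00% fell, with 20 members under 0.05 unadjusted. They were Rplp0 at 0.48 ± 0.11 (adjusted p = 0.00672), Rpl24 at 0.29 ± 0.08, Rpl27 at 0.24 ± 0.06, Rps2 at 0.23 ± 0.07, Rpl18 at 0.21 ± 0.07 and Rps9 at 0.20 ± 0.06. In the same average 4 of 29 biogenesis genes rose, Mybbp1a among them at 0.76 ± 0.14, and none fell, with a list median of 0.11. Of 11 mTOR genes 1 rose, Eif4ebp1 at 0.55 ± 0.12, and none of 7 Myc network genes passed. Of the cell markers 3 of 4 adipocyte genes fell and 3 of 5 neutrophil genes rose, with list medians of -3.09 and 1.24, and their part was not tested. Without TLR4 KO self-filling replicate 2 or IL10 KO self-filling replicate 1 the 6 became 3. With the signal ratio as a covariate 1 passed, and under median scaling 18 did, all of them rises.

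**Figure D4:**
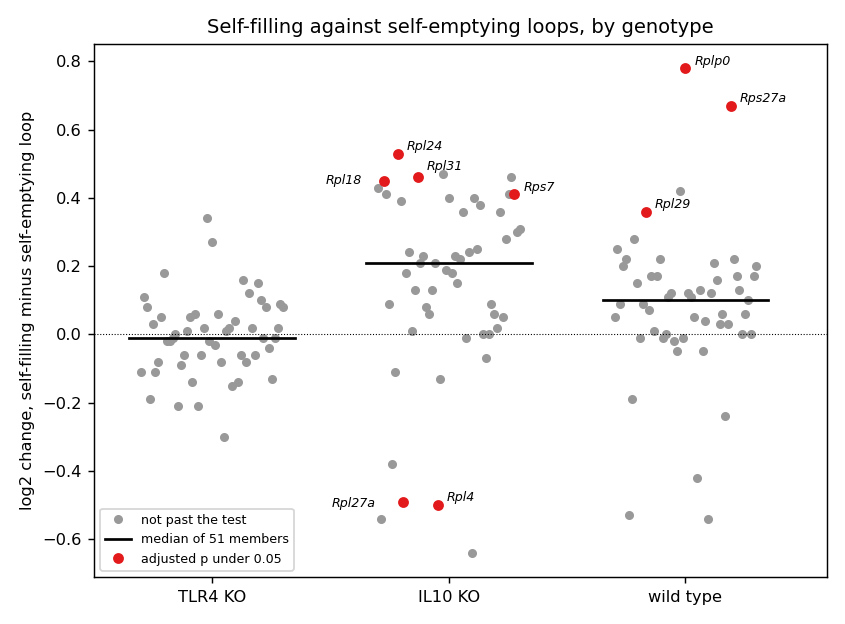
Log2 change of each of 51 genes in self-filling minus self-emptying loops (y axis), by genotype, with the median as a bar and the genes past the test in red. The medians are -0.01 in TLR4 KO, 0.21 in IL10 KO and 0.10 in WT, and no gene is red in TLR4 KO.

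TLR4 KO loops were set against WT loops of the same kind. In self-filling loops 5 members fell and none rose, where 6.65% of all genes fell and 4.74% rose, and in self-emptying loops 5 fell and 2 rose, where 3.57% fell and 2.08% rose. Unadjusted, 15 and 14 members were under 0.05. The members' median was -0.09 in self-filling and 0.05 in self-emptying loops, against 0.03 over all genes in both, and became -0.41 and -0.03 under median scaling. Rps3a, Rpl36a and Rpl7a were among those that fell in both kinds of loop.

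Rps3a, a small subunit protein that lies where messages leave the ribosome, read 9.14, 9.25 and 8.75 in TLR4 KO self-filling loops, against 10.43, 10.77 and 10.29 in WT self-filling loops. In self-emptying loops it read 8.96, 9.30 and 8.64 in TLR4 KO, against 10.29, 10.50, 10.14 and 10.55 in WT. All 6 TLR4 KO arrays lie below all 19 others, whose lowest is 9.95. The change was -1.45 ± 0.19 in self-filling loops (adjusted p = 0.000106) and -1.40 ± 0.18 in self-emptying loops (adjusted p = 7.34e-05), a level 2.73-fold and 2.65-fold lower.

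Rpl36a, on the X chromosome, read 11.69, 11.75 and 11.58 in TLR4 KO self-filling loops, against 12.32, 12.43 and 12.15 in WT. In self-emptying loops it read 11.66, 11.70 and 11.52 in TLR4 KO, against 12.39, 12.46, 12.17 and 12.24 in WT. It changed by -0.62 ± 0.11 (adjusted p = 0.00132) and -0.69 ± 0.10 (adjusted p = 0.000417), and the groups lie apart in both.

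Rpl7a changed by -0.92 ± 0.26 (adjusted p = 0.0258) in self-filling and -0.84 ± 0.24 (adjusted p = 0.045) in self-emptying loops, where arrays overlap: 9.61, 9.16 and 10.04 in TLR4 KO, against 10.70, 10.43, 9.95 and 10.68 in WT. Compared with those of Rps3a and Rpl36a, its calls were less stable. The adjusted p passed 0.05 without any of TLR4 KO self-filling replicates 1 and 3 or WT self-filling replicates 1 to 3, where it was 0.054 to 0.119, and without TLR4 KO self-emptying replicates 1 and 2 or WT self-emptying replicates 1, 2 and 4, where it was 0.0801 to 0.211. Rpl39, near the exit of the peptide tunnel, changed by -0.47 ± 0.11 in self-filling loops (adjusted p = 0.00947).

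Rps25, which is needed for initiation at some internal entry sites, changed by -0.68 ± 0.15 in self-emptying loops (adjusted p = 0.0107). Rps9 and Rpl29 rose there by 0.43 ± 0.11 and 0.40 ± 0.11 (adjusted p = 0.0226 and 0.042). Both rises, and the fall of Rpl7a in self-emptying loops, did not pass under median scaling, with adjusted p of 0.341, 0.363 and 0.236, or with the replicate block. The Rpl29 call was also lost when any single TLR4 KO or WT self-emptying array was left out, with adjusted p of 0.055 to 0.182. With the mean of all detected probes Rpl29 changed by 0.24 (adjusted p = 0.364), and its second probe changed by 0.07 ± 0.21 (unadjusted p = 0.732). The 7 calls became 4 without TLR4 KO self-emptying replicate 1 or 3 or WT self-emptying replicate 2 or 4, and 3 without TLR4 KO self-emptying replicate 2. In self-filling loops 13 members fell under median scaling, which moved the median of all genes to -0.11, and 3 fell with the signal ratio as a covariate.

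Other genes of translation fell beside them. Of 28 translation factors, 9 fell and 2 rose in TLR4 KO self-filling loops, and 6 fell and none rose in self-emptying loops. In self-filling loops Gnb2l1 changed by -1.35 ± 0.17 and Tpt1, whose message is a known target of the same pyrimidine control, by -1.30 ± 0.24, and in self-emptying loops Tpt1 changed by -1.16 ± 0.23 and Pabpc1, the poly(A)-binding protein, by -0.90 ± 0.15. Rpl22l1 changed by -1.52 ± 0.21 and -1.19 ± 0.19. Of 9 smooth muscle markers 5 rose in TLR4 KO self-filling loops, with mean levels of 10.31 to 10.86, against 8.71 to 10.04 in WT. Of 7 epithelial markers 3 fell in self-filling loops, with mean levels of 11.59 to 11.64 in TLR4 KO, against 11.88 to 12.03 in WT. In self-emptying loops 2 of them fell, with mean levels of 11.47 to 11.70 in TLR4 KO, against 11.73 to 11.85 in WT. The part of these cells was not tested. Since all TLR4 KO arrays are of the code series MX, these differences cannot be told apart from one between the array series.

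**Figure D5:**
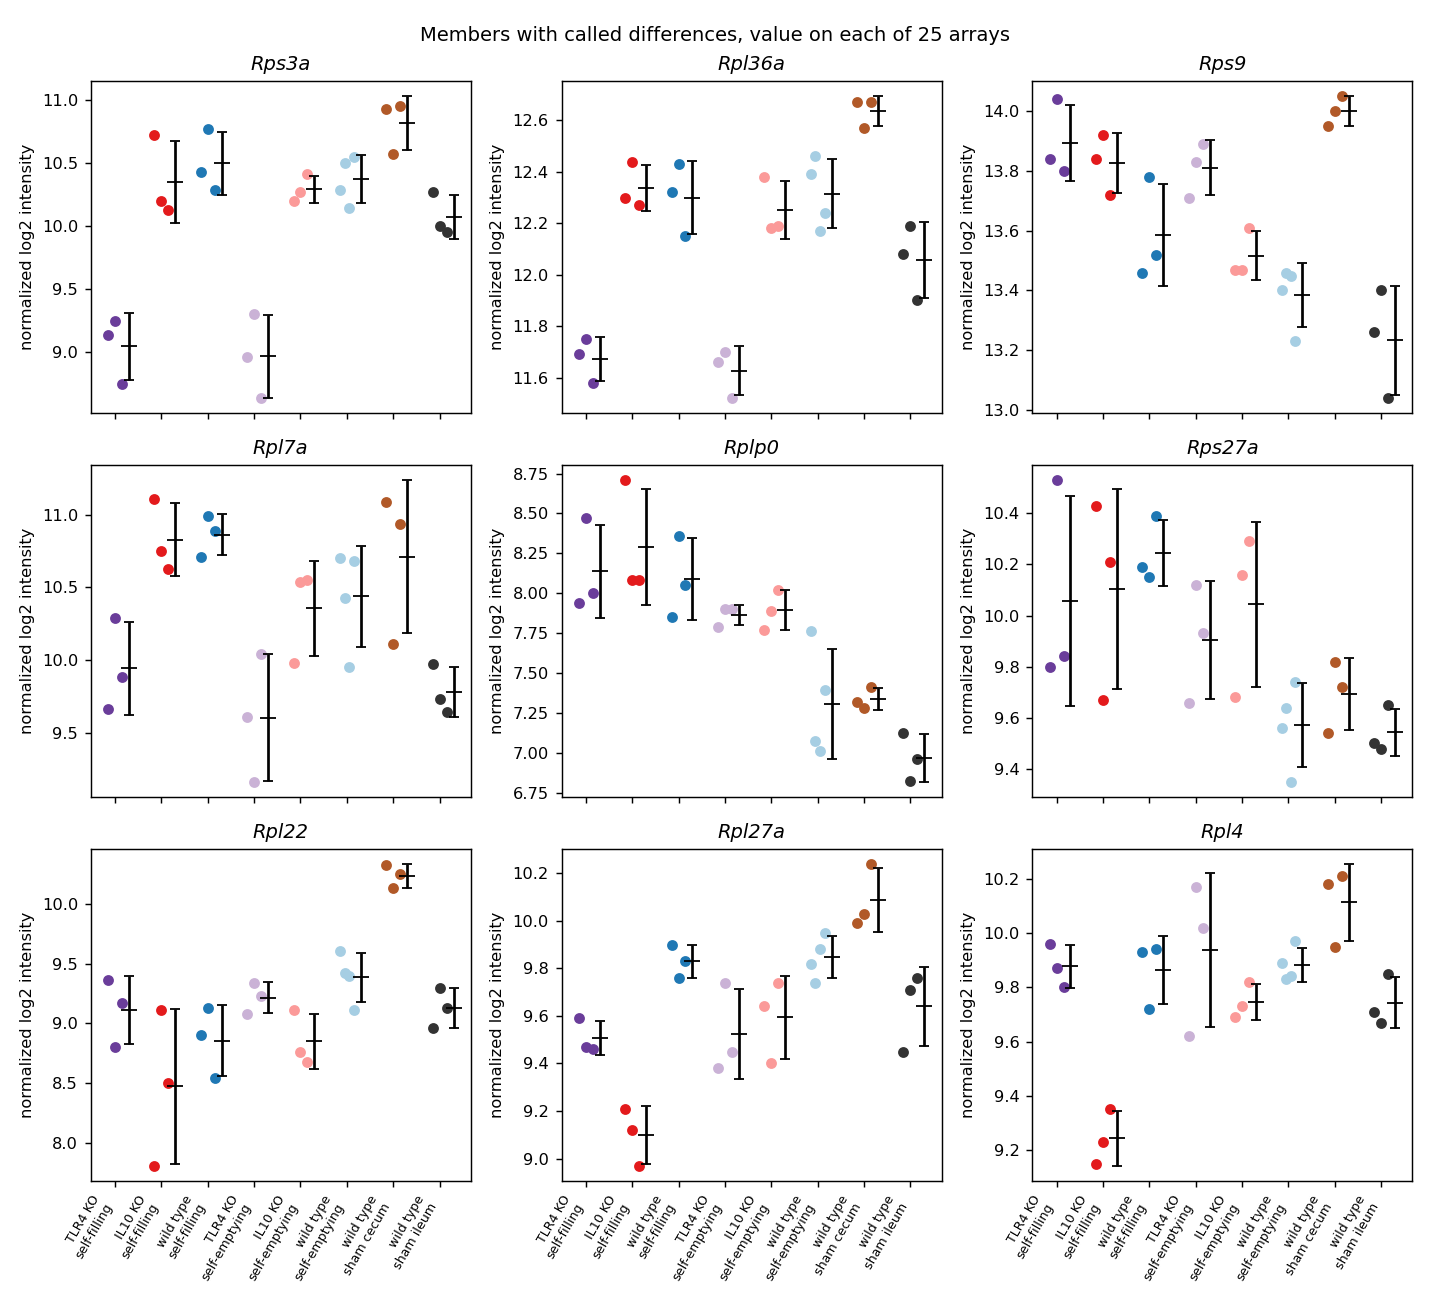
Normalized log2 intensity (y axis, own range per panel) of 9 genes on each of 25 arrays in the 8 groups, with group mean and SD. Rps3a and Rpl36a are lowest in both TLR4 KO groups, Rpl22 is highest in sham cecum, and Rpl27a and Rpl4 are lowest in self-filling loops labelled IL10 KO.

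Loops labelled IL10 KO were set against WT loops. In self-filling loops 3 members fell and none rose, where 6.61% of all genes fell and 5.93% rose, with 6 members under 0.05 unadjusted. The members' median was 0.05, against -0.02 over all genes, and turned to -0.13 under median scaling, which moved the median of all genes to -0.13 as well, and to -0.01 and -0.02 without IL10 KO replicate 1 or WT replicate 3. Rpl27a read 9.21, 9.12 and 8.97 in self-filling loops labelled IL10 KO, against 9.90, 9.76 and 9.83 in WT self-filling loops, and changed by -0.73 ± 0.12 (adjusted p = 0.000405). Rpl4 read 9.15, 9.23 and 9.35 in the loops labelled IL10 KO, against 9.93, 9.72 and 9.94 in WT, and changed by -0.62 ± 0.12 (adjusted p = 0.00181). Both genes stood lower in this group than on any of the other 22 arrays, and both calls held in every alternative tried.

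Rpl13a read 9.13, 9.19 and 9.30 in self-filling loops labelled IL10 KO, against 10.13, 9.70 and 9.92 in WT, and changed by -0.71 ± 0.17 (adjusted p = 0.00781; 0.0544 without WT self-filling replicate 1). Beside these falls all 8 T cell, 6 of 8 macrophage and 3 of 5 neutrophil markers rose and 3 of 7 epithelial markers fell. The mean T cell level was 6.80 to 7.29 in loops labelled IL10 KO, against 5.03 to 5.45 in WT, and the mean epithelial level was 11.44 to 11.62, against 11.88 to 12.03. Their part in the result was not tested.

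In self-emptying loops labelled IL10 KO, 1 member rose and none fell, where 5.22% of all genes rose and 4.30% fell, with 7 under 0.05 unadjusted. It was Rplp0, which read 7.77, 7.89 and 8.02 in these loops, against 7.76, 7.07, 7.01 and 7.39 in WT, a change of 0.59 ± 0.18 (adjusted p = 0.0448). The nearest arrays differ by 0.01. The call was lost without any of the 3 IL10 KO arrays or WT self-emptying replicates 2, 3 or 4, with adjusted p of 0.0664 to 0.153. Here 35 of 51 members were below 0, with a median of -0.08, against 0.02 over all genes. Of 17 cell cycle genes 5 rose and none fell here. In WT self-filling loops 2 of the 17 rose against sham ileum and 3 against self-emptying loops, with list medians of 0.55 and 0.43. In sham cecum against sham ileum 1 rose and 1 fell, with a median of -0.16. With filling none passed in TLR4 KO or in arrays labelled IL10 KO, with medians of 0.40 and -0.10. Of 5 neutrophil markers 4 rose, with mean levels of 6.80 to 8.02 in self-emptying loops labelled IL10 KO, against 4.87 to 5.19 in WT, and their part was not tested.

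Ranges of members with a known role beyond the subunit are given for their brightest probes, which differ in brightness, and do not order the genes by how steady they are. Among genes often used as reference transcripts, the range of the 8 group means was 1.33 for Rplp0, 0.87 for Rpl4, 0.73 for Rpl13a, 0.49 for Rpl19 and 0.44 for Rps13. Rplp0 had more calls than any of these, with 4 rises over the 13 comparisons. Rpl38, whose loss in mice disturbs Hox gene translation and the skeleton, had a range of 0.28 on its bright probe and 1.49 on its second, and Rps26, a gene of Diamond-Blackfan anaemia in humans, 0.32. Rps27l, the p53-responsive paralogue of Rps27, had a range of 0.22, and Rps6, the target of the S6 kinases, 0.46. Rps6 changed by 0.46 ± 0.14 with filling in arrays labelled IL10 KO (adjusted p = 0.0584). Over the 13 comparisons, which share arrays, 36 members passed at least once (70.6%), where 56.3% of all genes did, and 15 never passed. Rps9 and Rpl29 also rose in 4 comparisons each, while Rps3a, Rpl36a, Rpl27a and Rpl4 rose once and fell in 2.

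Of the 51 members, 10 had 11 further detected probes. Their direction matched that of the brightest probe for 10 of 11 in cecum against ileum, 8 of 11 in WT self-filling loops against ileum, and 5 of 11 in TLR4 KO self-filling against self-emptying loops. The second Rpl38 probe, with a mean of 9.27 in WT self-filling loops and 8.10 in sham ileum, changed by 1.17 ± 0.29 (unadjusted p = 0.000678), while the bright probe changed by 0.10. The second Rps24 probe changed by 1.01 ± 0.15 there (unadjusted p = 1.01e-06), against 0.23 for the bright probe. In self-filling loops labelled IL10 KO against WT, the second Rpl31 probe changed by -0.78 ± 0.12 (unadjusted p = 3.21e-06), while the bright probe changed by 0.12. Ribosomal protein genes have many near-identical pseudogenes, and which transcripts each probe reads was not tested.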

How the data were processed

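Total RNA from 25 mouse intestine samples had been read on Illumina bead arrays, with biotin as the label. Per the file headers, the deposited table gives for each of 25697 probes the average bead signal, an intensity on a linear scale without normalization, with its bead standard error, the number of beads and a detection p-value as deposited by the authors. The authors also deposited processed log2 values for 17612 probes. The submitters' processing notes name limma, and the background correction and normalization behind these values are not given in the sources used here. All 25 of their columns matched the values computed here for the same array more closely than for any other, with r of at least 0.99999, differences of at most 0.10 and column medians of 6.02. The arrays have 1 colour, and 0 per-sample columns lacked a sample.

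Intensities were corrected with the detection p-values and quantile normalized (limma 3.58.1, neqc, offset 16, in R 4.3.3). Probes detected at p under 0.05 on at least 3 arrays were kept (15318), with the brightest per symbol (11369). All arrays entered 1 limma model with 8 group means (lmFit, contrasts.fit, eBayes; 17 residual and 3.93 prior degrees of freedom), with Benjamini-Hochberg adjustment over all 11369 genes and a threshold of 0.05. Errors of changes are standard errors. The script was tested on simulated data. Detected probes numbered 12123 to 13627 per array, with a median of 33 to 39 beads per probe; the number of arrays limits the precision.

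Groups came from the sample titles, whose replicate numbers do not pair the samples. The descriptions give 4 of the 25 samples other numbers, and the titles' numbers are used throughout. Named genes are, per comparison, up to 4 passing members with the largest rise and 4 with the largest fall, or the 2 smallest p-values where none passed, plus the brightest and dimmest 3, the 5 widest ranges and members of fixed role lists. A few genes that this rule takes are not reported here. Members, lists and alternatives were chosen with earlier results of these data known. Members were matched to RefSeq genes by gene ID (49) or accession (2). Start sites, given for 41 of the members, came from RefSeq promoters (GRCm38.p6). Alternatives were other background, scaling, filter and probe rules, the authors' values, blocks for replicate number or runs of 8 codes, the signal ratio as covariate, and leaving out each array.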

Additional observations from a re-analysis of the deposited data

Results flagged for a closer look

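Among the members in the group of 4 arrays, the WT self-emptying loops, 2 values lay far from the other 3. Rpl41 read 14.66 in WT self-emptying replicate 1, while the other 3 arrays read 14.58 each, a gap that takes the whole range of the group but is 0.08 on the log2 scale. Rps15 read 11.75 in WT self-emptying replicate 4, against 12.06 to 12.07 in the others. Chance gives such a flag in about 1 in 20 groups, and 38 sets of values were looked at in this group. Quantile normalization gives the same value to the same rank on each array, so the 3 equal Rpl41 values stand for equal ranks. That rate does not cover such steps between ranks.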

How the results depend on the processing

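Of 745 alternative values for 44 single-gene results, 623 kept direction and side of the threshold, 118 kept direction but were past it no longer, 4 passed newly and 0 changed sign. Numbers of members called moved as follows; the cause was not tested. Median scaling gave 23 in WT self-filling against sham ileum, 15 in WT self-filling against self-emptying, 2 in cecum against ileum, 0 in IL10 KO self-filling against self-emptying, 18 in the average of 3 genotypes, 0 in IL10 KO against WT self-emptying, 13 (all falls) in TLR4 KO against WT self-filling, 3 (all falls) in TLR4 KO against WT self-emptying and 1 in the IL10 KO interaction. No background correction gave 5, 12 and 10 (8 rises, 2 falls) for filling against emptying in WT, IL10 KO and the average, 2 falls in IL10 KO against WT self-emptying and 8 in TLR4 KO against WT self-filling. The mean of all detected probes gave 5 in WT self-filling against self-emptying and in IL10 KO against WT self-filling, 2 in IL10 KO against WT self-emptying and 1 in the IL10 KO interaction. The signal ratio as covariate gave 3 in WT self-filling against ileum, 0 in WT self-filling against self-emptying, 1 in the average, 2 in IL10 KO against WT self-emptying, 3 in TLR4 KO against WT self-filling and 1 in the IL10 KO interaction. Runs of codes as a block gave 1 in WT self-filling against self-emptying, 11 in IL10 KO and 1 in the IL10 KO interaction; TLR4 KO against WT could not be fitted with that block. The replicate block gave 3 in IL10 KO self-filling against self-emptying, 0 in IL10 KO against WT self-emptying and 4 in TLR4 KO against WT self-emptying. It moved no other count by over 1.5 times. By the titles' numbers, in no comparison did every same-numbered pair of arrays correlate above 0.1. With the numbers of the descriptions as the replicate block, added after seeing the data, IL10 KO against WT self-emptying gave 0 and no other count moved by over 1.5 times. By those numbers every same-numbered pair correlated above 0.1 only in TLR4 KO against WT self-filling, which had 2 pairs, at 0.13 and 0.25. Without the 2 WT self-emptying arrays of codes 9 to 16, an alternative added after seeing the data, WT self-filling against self-emptying gave 0. Leaving out each array gave 4 to 8 in WT self-filling against ileum, 0 to 0 in WT self-emptying against ileum, 1 to 3 in WT self-filling against self-emptying, 14 to 24 in cecum against ileum, 0 to 13 in IL10 KO and 0 to 0 in TLR4 KO self-filling against self-emptying, 3 to 8 in the average, 2 to 4 and 0 to 1 in IL10 KO against WT self-filling and self-emptying, 4 to 5 and 3 to 6 in TLR4 KO against WT, and 0 to 2 and 0 to 0 in the IL10 KO and TLR4 KO interactions. The median level of the members moved with the mean of all detected probes to 12.71, 12.89 and 12.88 in TLR4 KO, IL10 KO and WT self-filling, 12.76, 12.69 and 12.71 in the same self-emptying loops, 12.89 in cecum and 12.59 in ileum. Median scaling gave 13.08 and 13.50 in TLR4 KO and WT self-filling, 12.98 and 13 in TLR4 KO and WT self-emptying, and 13.21 in cecum, and the authors' values gave 13.08 and 13.04 in TLR4 KO and WT self-emptying.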
